A study of Mus musculus with 2 samples.

Results

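Small nucleolar RNAs (snoRNAs) that were detected in mouse heart are described here. They are the genes annotated with the biotype snoRNA, chosen by their expected counts, which had to be at least 10 in each of 2 total RNA libraries. An expected count is the estimated number of reads of a gene after reads shared between genes have been divided among them. The rule held for 46 of the 1507 annotated snoRNA genes, out of 55536 mouse genes in the tables. Both libraries came from heart tissue of female B6CASTF1/J mice aged 36 days, an F1 cross between C57BL/6J and CAST/EiJ from The Jackson Laboratory. Each library was made from 300 ng of total RNA with ERCC spike-in RNAs, and the labels name the spike-in profile for stranded libraries with ribosomal RNA reduced. Replicate 1 is animal 3 and replicate 2 is animal 4. The labels call them biological replicates, although both carry the same donor identifier. They form 1 group, so levels are given with the SD over n = 2 and no contrast between conditions can be made.

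Most snoRNAs guide chemical changes to other RNAs. C/D box snoRNAs, whose names begin with Snord, carry the short C and D motifs near their ends and guide methylation of ribose. H/ACA box snoRNAs, whose names begin with Snora, end shortly after the letters ACA and guide the conversion of uridine to pseudouridine. A few, among them U3 (Rnu3), U17 (Snora73) and U22 (Snord22), are needed for cutting the ribosomal precursor RNA, while small Cajal body RNAs (Scarna) guide changes in the spliceosomal RNAs. In mammals most snoRNAs are cut out of introns of host genes, many of which encode proteins of ribosome synthesis and translation. U3 is instead made from genes with their own promoters.

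Of the members, 9 had Snora names, 4 had Snord names, 9 were U3 rows, 1 was Scarna10 and 23 had only a provisional Gm symbol. The 46 rows carried 42 symbols and 40 distinct sequences, and lay on 16 chromosomes. The sequences that follow are those of GENCODE M21 transcripts, on mm10, the build of the files, written with T for U. Snord15b lies at chr7:99479563-99479707 (minus strand) in Rps3, Snord22 at chr19:8725866-8725991 (plus strand) in Snhg1 and Gm22486 at chr6:71882557-71882693 (minus strand) in Ptcd3. RefSeq (GRCm38.p6) names a snoRNA gene that overlaps Gm22486 as Snord94. They show the C/D layout, and capitals mark TGATGA in the first 25 bases and CTGA in the last 15 bases where a transcript holds them.
Snord15b: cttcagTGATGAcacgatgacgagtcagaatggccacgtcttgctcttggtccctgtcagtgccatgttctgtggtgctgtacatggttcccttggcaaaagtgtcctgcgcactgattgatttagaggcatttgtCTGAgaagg
Snord22: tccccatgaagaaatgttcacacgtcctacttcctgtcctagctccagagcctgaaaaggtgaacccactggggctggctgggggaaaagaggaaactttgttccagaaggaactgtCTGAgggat
Gm22486: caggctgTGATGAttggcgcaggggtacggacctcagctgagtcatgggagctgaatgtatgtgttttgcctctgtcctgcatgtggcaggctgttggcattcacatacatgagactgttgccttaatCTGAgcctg

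Gm26447, the member with the highest level, lies at chr16:23111301-23111429 (plus strand) in Eif4a2. It shows the H/ACA ending, with ACA in the last 10 bases in capitals.
Gm26447: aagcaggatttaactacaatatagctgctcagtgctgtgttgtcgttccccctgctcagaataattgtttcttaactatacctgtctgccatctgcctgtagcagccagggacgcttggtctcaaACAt

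TGATGA in the first 25 bases was found in 7 of 46 members (15.2%), against 1.81% of the 1049 annotated snoRNAs of at least 100 bases and 67.7% of the 458 shorter ones. CTGA in the last 15 bases was found in 19 members (41.3%), against 9.72% and 81.0% of the same classes. ACA in the last 10 bases was found in 27 members (58.7%), against 63.2% and 11.1%. Each motif was searched on the strand of the transcript alone. A match describes the letters and not a working motif, and the 8 Rnu3b rows are counted singly although they hold 2 sequences.

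Several members were close relatives of each other, and such likeness can bear on how reads are assigned. Gm22988, at chr11:69669635-69669778 (minus strand) in Eif4a1, had 3 relatives of the same length of 144 bases. They were Gm25291 at chr11:51737779-51737922 (minus strand) in Sec24a, Gm24727 at chr8:33691801-33691944 (plus strand) in Gsr and Gm25117 at chr10:111481493-111481636 (plus strand) in Nap1l1. Capitals mark the letters in which each relative differs from Gm22988.
Gm22988: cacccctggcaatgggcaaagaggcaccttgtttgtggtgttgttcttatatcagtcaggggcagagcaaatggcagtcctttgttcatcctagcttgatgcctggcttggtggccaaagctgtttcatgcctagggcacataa
Gm25291: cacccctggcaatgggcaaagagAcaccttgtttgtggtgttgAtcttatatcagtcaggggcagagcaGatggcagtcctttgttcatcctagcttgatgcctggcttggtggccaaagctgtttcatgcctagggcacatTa
Gm24727: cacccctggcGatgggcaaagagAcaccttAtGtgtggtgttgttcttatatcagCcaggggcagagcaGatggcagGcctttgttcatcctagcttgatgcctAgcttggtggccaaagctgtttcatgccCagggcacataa
Gm25117: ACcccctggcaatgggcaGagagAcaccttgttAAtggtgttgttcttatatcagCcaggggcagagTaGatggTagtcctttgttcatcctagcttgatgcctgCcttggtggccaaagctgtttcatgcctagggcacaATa

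Gm25291 differed from Gm22988 at 4 positions, which counted from the first base are G24A, T44A, A70G and A143T (the letter of Gm22988 first). Gm24727 differed at 9 positions and Gm25117 at 13. G24A and A70G were present in all 3 relatives. Gm25788, at chr4:123291344-123291474 (plus strand), and Gm22154, at chr4:123293152-123293282 (plus strand), lie in different introns of Pabpc4 and differed by T28C, T29C, T96C and C131T (the letter of Gm25788 first). Snora73a, at chr4:132352775-132352979 (minus strand), and Snora73b, at chr4:132352322-132352526 (minus strand), lie in different introns of Snhg3. They differed by G3A, G54A, A111G, T164C, G203A, T204A and T205A (the letter of Snora73a first). Capitals mark the differing letters within each pair.
Gm25788: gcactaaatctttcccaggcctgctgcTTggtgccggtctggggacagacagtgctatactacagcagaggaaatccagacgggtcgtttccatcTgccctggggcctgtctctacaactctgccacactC
Gm22154: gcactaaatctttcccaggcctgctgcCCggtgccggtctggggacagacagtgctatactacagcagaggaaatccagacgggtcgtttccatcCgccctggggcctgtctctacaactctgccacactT
Snora73a: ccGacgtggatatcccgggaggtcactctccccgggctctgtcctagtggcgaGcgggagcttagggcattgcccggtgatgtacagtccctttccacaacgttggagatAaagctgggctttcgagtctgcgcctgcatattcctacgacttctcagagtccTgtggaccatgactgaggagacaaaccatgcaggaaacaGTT
Snora73b: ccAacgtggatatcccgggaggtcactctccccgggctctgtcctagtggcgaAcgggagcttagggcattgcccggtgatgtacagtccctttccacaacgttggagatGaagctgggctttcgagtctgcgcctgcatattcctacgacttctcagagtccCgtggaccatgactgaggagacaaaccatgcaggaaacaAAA

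U3 is printed for its annotation in 2 lengths. Each of Rnu3b1 to Rnu3b4 has a row of 216 bases and a row of 215 bases, and the 4 rows of a length are identical. The sequence is given for Rnu3b1 at chr11:87443237-87443452 (plus strand), and the capital marks the last base, which the shorter row lacks.
Rnu3b1: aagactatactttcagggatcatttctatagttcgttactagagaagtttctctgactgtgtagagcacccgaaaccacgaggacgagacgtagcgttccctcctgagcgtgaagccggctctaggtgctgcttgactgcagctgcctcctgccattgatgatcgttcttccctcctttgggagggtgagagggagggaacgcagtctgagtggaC

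The libraries held 38845613 and 38168674 expected counts in mouse genes. The 6 cardiomyocyte markers lay between 371 TPM (Ryr2, the calcium release channel) and 8639 TPM (Myh6, a heart myosin heavy chain), and 5 of 6 neuron markers lay under 1 TPM. All 6 erythroid markers, hemoglobin genes among them, were more than 2-fold lower in replicate 2, with a summed TPM of 36363 in replicate 1 and 11882.5 in replicate 2.

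The authors' tables make snoRNA detection depend on length. TPM values are counts divided by an effective length and scaled to a common sum. For each of the 1049 snoRNA genes of at least 100 bases, length minus effective length plus 1 was 100. The 458 snoRNAs of 35 to 99 bases had an effective length of 0 and no counts. Of 98 genes with a Snord name, 11 reached 100 bases, while all 42 Snora genes did. Members made up 4.39% of the 1049 genes that could hold counts. That share was 0 of 130 at 100 to 119 bases, 4 of 284 at 120 to 129 bases, 14 of 516 at 130 to 139 bases, 8 of 65 at 140 to 149 bases, 4 of 23 at 150 to 197 bases and 16 of 31 at 200 bases or more. The last class holds the 10 annotated U3 rows, of which 9 were members, and 8 of these are the Rnu3b rows, which hold 2 sequences. The 130 genes of 100 to 119 bases all lay below the minimum. An absence from the members therefore says nothing about a snoRNA shorter than 100 bases, and most C/D box snoRNAs are of that kind.

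**Figure D1:**
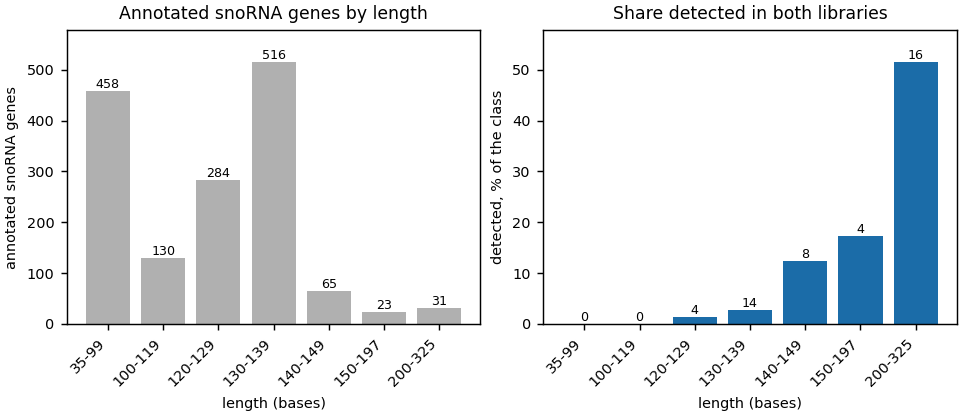
Annotated snoRNA genes by length in bases (left, number of genes) and the share of each class detected in both libraries (right, percent, with the number of members over each bar). No gene under 120 bases was a member, and 16 of the 31 genes of 200 to 325 bases were. These 16 include 9 U3 rows, of which the 8 Rnu3b rows hold 2 sequences.

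Several well-known snoRNAs were not members. The 4 Snord14 rows (U14) were 86 to 90 bases long, and the 19 rows with Snord64, Snord107 and Snord116 names, of the imprinted Snrpn region, were 67 to 94 bases long. None of these could hold a count. Others were long enough but nearly without counts. Snord118 (U8, 135 bases) had 2 and 0 counts, and Snord13 (U13, 104 bases) had 1 and 0 counts, below the limit of 3 counts that a count of 0 allows. The members nearest above the minimum were Gm24727 (10 and 21 counts), Snora43 (15 and 10.46 counts), Gm25117 (11 and 24 counts) and Gm22748 (11 and 13 counts). Those nearest below it were Snora26 (8.76 and 10.84 counts), Snora17 (8 and 9 counts), Gm22270 (12 and 8 counts) and Gm25776 (8 and 11 counts).

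The detection rests on 1 of the 2 quantifications the authors deposited. In the second, a table of transcripts, no snoRNA gene reached 10 counts in either library. Scarna10 had 5 and 2 estimated counts there, and the other members were listed at 0. This included 21 of the 21 members whose every 100-base window occurs in no transcript of another gene. Other small RNA classes did likewise: of 26 snRNA genes with at least 10 expected counts in each library, 0 reached 10 estimated counts, as did 0 of 10 misc_RNA genes (among them the RNAs of the 7SL and 7SK particles) and 2 of 9 scaRNA genes. All levels that follow are those of the first quantification, and the cause of the gap was not tested.

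The members held 8584 and 9375 counts, or 0.0233 ± 0.0017% (SD, n = 2) of mouse counts. Their summed TPM was 3431 ± 339 (SD, n = 2), and the median of the members' mean TPM was 25.9. The 7 highest held 64.7% of the members' TPM in replicate 1 and 65.9% in replicate 2. By counts the order was different, since TPM divides by an effective length that ran from 27 bases for Snord22 to 226 bases for Scarna10. Scarna10 alone held 32.2% and 35.3% of the members' counts.

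**Figure D2:**
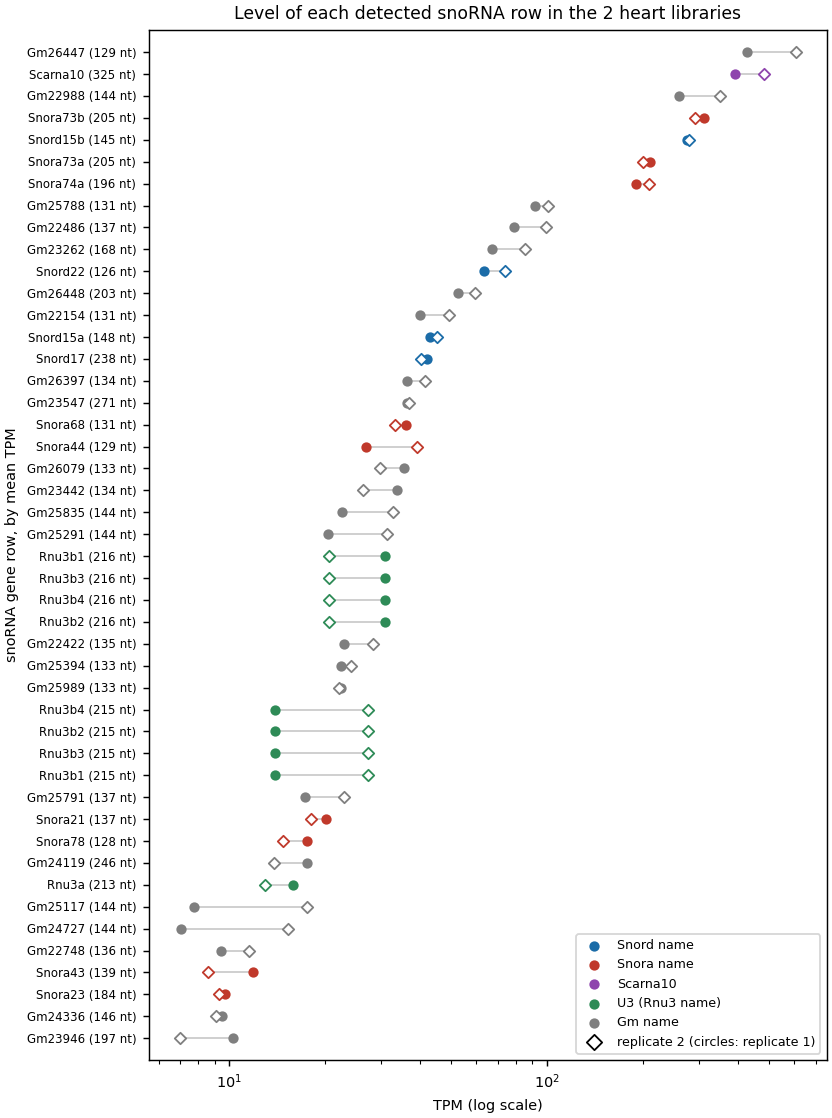
TPM (log scale) of each of the 46 member rows in replicate 1 (filled circles) and replicate 2 (open diamonds), ordered by mean TPM, with the length in nucleotides (nt). A group of 7 rows lies at 190 TPM or more in both libraries and the rest lie near 100 TPM or lower.

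Among the C/D box snoRNAs with Snord names, Snord15b (U15, a guide for ribosomal RNA methylation) was highest, at 276 and 279.7 TPM from 398.8 and 391.6 counts. Snord15a, from another intron of the same host Rps3, was at 42.9 and 44.9 TPM. The values of this pair from 1 host did not overlap. Snord22 stood at 63.3 and 73.7 TPM, and Snord17, the lowest, at 41.9 and 40.2 TPM. Gm22486, which RefSeq names Snord94, had 78.7 and 99.4 TPM.

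Among the members with Snora names, Snora73b and Snora73a (U17) had the highest mean TPM, with 311 and 293 TPM and with 210.5 and 200.4 TPM. Together they gave 1739 and 1591 counts. Gm26448, in an intron of the ribosomal protein gene Rpsa, shared 88.3% of its aligned letters with Snora73a and stood at 52.3 and 59.4 TPM. Snora74a (U19) followed at 190.4 and 210.15 TPM, in the gene AC121821.1, whose place RefSeq gives to Snhg4. Snora44 stood at 27.02 and 38.99 TPM. By mean TPM the lowest Snora member was Snora23, at 9.73 and 9.28 TPM in Ipo7. Snora21 (Rpl23), Snora78 (Snhg9) and Snora43 lay between 8.59 and 20.1 TPM. No annotated gene of GENCODE holds Snora43 on its strand, and RefSeq places it in Snhg7.

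Scarna10 had 2767 and 3310 counts, the most of any member, and 389.5 and 481 TPM. It lies in Ncapd2, a condensin subunit gene, at 7.49 and 9.10 TPM. The biotype in the files is snoRNA although the name is that of a small Cajal body RNA, and its 325 bases make it the longest member. Of the 226 windows of Scarna10 only 42 were its own, and 184 were shared with transcripts of Ncapd2 and Gm28967. The counts of Scarna10 therefore depend in part on how shared reads were divided. Their posterior SDs were 6.45 counts in replicate 1 and 7.46 counts in replicate 2.

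Of the 23 members with Gm symbols, Gm26447 (426 and 606 TPM) and Gm22988 (260.4 and 350.0 TPM) lie in Eif4a2 and Eif4a1, which encode paralogous helicases of translation initiation. By the mean of both libraries they were the highest and the third highest of all members. Gm25788 (91.5 and 100.6 TPM) and Gm22154 (39.8 and 49.3 TPM) both lie in Pabpc4, which encodes a poly(A)-binding protein. Gm23262 in Eif4g2 stood at 67.1 and 85.5 TPM. Gm26397 in Tomm20, Gm23547 in Phb2 and Gm26079 in Ep400 lay between 29.8 and 41.3 TPM. Gm23547 and Gm24119, at 271 and 246 bases, were the longest of these members, and Gm24119 stood at 17.5 and 13.9 TPM. By mean TPM the lowest was Gm23946 in Timm23, at 10.3 and 6.99 TPM. Gm22422 shared 80.3% of its aligned letters with Snora70, and for the Gm members other than it and Gm26448 the closest Snora or Snord name reached at most 64.8%.

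By names, the C/D box group (Snord and U3) took 43.2% of the summed TPM of C/D and Snora members (mean of 42.6% and 43.8%). Counts in place of TPM gave 37.0%, and the Gm members and Scarna10 are in neither group. In replicates 1 and 2 the Gm members held 42.2% and 46.9% of all members' TPM, and Scarna10 12.2% and 13.1%. Only 11 of 98 Snord genes could hold a count, against all 42 Snora genes. The share therefore does not describe C/D against H/ACA box snoRNAs in general.

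Outside U3 there were 37 members, of which 36 lay within another gene on the same strand. All 36 were in an intron of at least 1 transcript of that gene, and 15 of them also overlapped an exon of another of its transcripts. Where several genes held a member, the host was a gene with it in an intron, and among those the highest in TPM. This concerned Snora73a and Snora73b, also within Rcc1, and Snora74a, also within Gm28285, and these other genes were not compared. The 32 host genes comprised 27 protein-coding genes with 30 members and 5 non-coding genes with 6 members. Eif4a1, Snhg3, Rps3 and Pabpc4 held 2 members each. Members lay a median of 184 bases upstream of the next exon, and at most 7664 bases (Gm26397).

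The snoRNA exceeded its host in TPM in both libraries in 19 of 36 pairs and was below it in 16. All 6 members in non-coding hosts were above them. Snora74a stood at 200.3 ± 13.9 TPM (SD, n = 2) and its host at 2.41 and 3.01 TPM. Snora73b and Snora73a stood above Snhg3, at 4.81 and 5.13 TPM. Snora78 stood at 17.6 and 14.7 TPM above Snhg9, at 0.38 and 0.78 TPM from only 1 and 2 counts. In protein-coding hosts 13 of 30 members were higher. Scarna10, Gm26447, Gm22988 and Snord15b were among them, the last against 130.2 and 119.9 TPM of Rps3. The reverse held for Gm24119, since its host Slc25a3, the mitochondrial phosphate carrier, stood at 963 and 902 TPM.

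**Figure D3:**
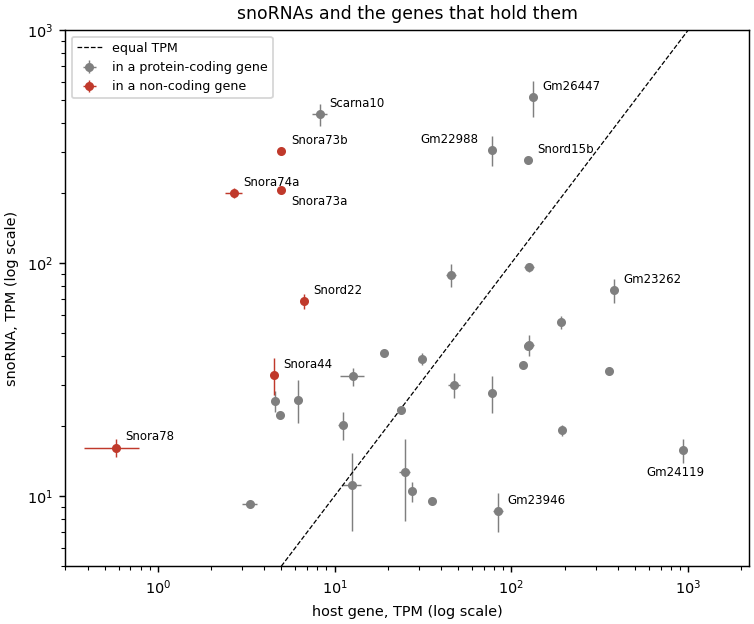
TPM of 36 members outside U3 against TPM of the gene that holds each (both log scale), as the mean of 2 libraries with bars to the lower and the higher library. The dashed line marks equal TPM, and all 6 members in non-coding genes (red) lie above it.

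Across the 36 pairs, log2 TPM of member and host gave Pearson's r = 0.047 and Spearman's rho = 0.14. The pairs share libraries and depth, 4 hosts enter more than once, and some pairs share reads. With expected counts in place of TPM 5 members exceeded their host in both libraries.

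Assignment of reads between a snoRNA and its host is uncertain for part of the members. At a length of 100 bases, 21 members had windows found in no other gene's transcripts, 17 had none of their own and 8 had some. The host's own transcripts shared windows with 14 members, and all windows with 8 of them. Gm26447 shared all 30 of its windows with Eif4a2 transcripts. The 2 Eif4a2 transcripts that overlap it were given 1.14 and 1.22 TPM in sum, against 426 and 606 TPM for the snoRNA. Gm22988, Snord15b, Snord22, Snora74a, Snora44 and Gm25791 likewise had no window of their own, whereas all 106 windows of Snora73b were its own. The counts of Snora73b were still fractional (1037.61 and 944.02), with posterior SDs of 5.45 and 5.91 counts. Those of Gm26447 were 1.14 and 1.16 counts, so unique windows alone do not show how firmly reads were assigned. Scarna10 shared 184 of its 226 windows with transcripts of Ncapd2 and Gm28967. For AC121821.1 the second quantification gave 777 and 824 counts, where the first gave 87.7 and 100.55 to it and 580.6 and 621 to Snora74a. For Snhg3 the second gave 44 and 46 counts, where the first gave 54.2 and 57.3 to it and 1739 and 1591 to its 2 snoRNAs.

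The U3 rows show how identical copies share reads. The 4 Rnu3b genes lie within the span of Tex14 (0.04 and 0.10 TPM), and none of their windows was unique. In replicate 1 each 216-base row was given 113.8 counts and each 215-base row 50.9 counts. In replicate 2 these were 73.2 and 96.3 counts, so the order of the lengths was reversed. The sum over the 8 rows was 659 and 678 counts, or 185.5 ± 8.2 TPM (SD, n = 2), which would place Rnu3b after the 7 highest members. The posterior SDs of single rows in replicate 1 ran from 42.55 to 79.9 counts, and their TPM intervals, as the authors deposited them, from near 0 to 70.2 TPM. Rnu3a had 57 and 45 counts in its 213-base row and 0 in both libraries in its 214-base row. Rnu3a aligned to Rnu3b with 85.4% identity, and its sum was 14.4 ± 2.1 TPM (SD, n = 2).

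**Figure D4:**
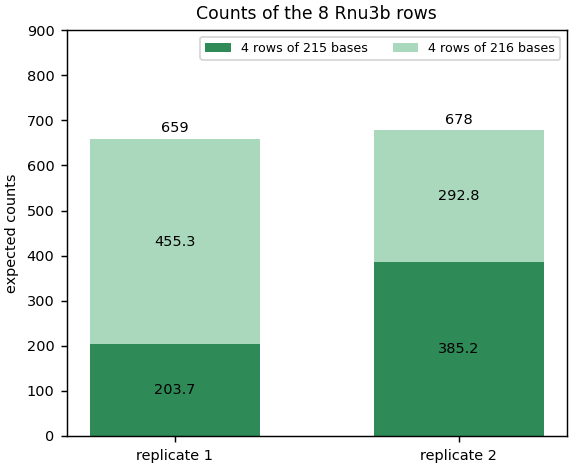
Expected counts of the 8 Rnu3b rows in each library, stacked by the length of the row. The split between the 4 rows of 216 bases and the 4 rows of 215 bases changes from 455.3 and 203.7 to 292.8 and 385.2 counts, while the sums are 659 and 678.

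The libraries were compared by log2 ratios of replicate 2 over replicate 1, on rounded counts and effective library sizes from the TMM normalization. An exact two-sided binomial test with Benjamini-Hochberg adjustment over the 13745 genes whose counts summed to 50 or more called a gene at an adjusted p under 0.05 and at least a 2-fold ratio. The test speaks of the reads of these 2 libraries, not of a condition. Of all genes tested, 1.53% were called, 0.546% higher and 0.982% lower in replicate 2. Of 36 members tested, 4 were called. These 4 were the 215-base Rnu3b rows, which hold 1 sequence, each with a log2 ratio of 1.01 (interval 0.51 to 1.53, adjusted p = 0.000342 by the exact binomial test). The 215-base rows had no window of their own, so their counts rest on how reads were divided with the longer Rnu3b rows. In replicate 1 their posterior SDs ran from 42.55 to 78.6 counts, for 50.92 counts in each row. The interval and adjusted p leave this uncertainty out, and a change of the shorter form itself was not tested. The 8 Rnu3b rows in sum had a log2 ratio of 0.14 (95% counting interval -0.01 to 0.30). The call therefore did not extend to U3 as a whole. With an edgeR exact test at a common dispersion, 0 members were called at an adjusted p under 0.05. By the same test 5 had an unadjusted p under 0.05, against 4.24% of all genes. These 5 were the 4 identical 215-base Rnu3b rows (unadjusted p = 0.0034 each, edgeR exact test) and Gm26447 (unadjusted p = 0.025, edgeR exact test).

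At any fold, 7 of the 36 members (19.4%) passed the adjusted p by the exact binomial test, against 21.9% of all genes tested. All 7 were higher in replicate 2, as were 10% of all genes tested. Apart from the 4 Rnu3b rows these were Scarna10, Gm26447 and Gm22988. Scarna10 had 2767 and 3310 counts, a log2 ratio of 0.36 (interval 0.29 to 0.43). The ratios were 0.57 (0.38 to 0.75) for Gm26447 and 0.49 (0.29 to 0.69) for Gm22988. These intervals and that of Scarna10 leave out the uncertainty of dividing reads that the 3 snoRNAs share with other genes. In replicates 1 and 2 the posterior SDs of their counts were 6.45 and 7.46 for Scarna10. They were 1.14 and 1.16 for Gm26447 and 0.9 and 0.71 for Gm22988. Their hosts Ncapd2, Eif4a2 and Eif4a1 had log2 ratios of 0.26, 0.17 and 0.05. At any fold Ncapd2 (adjusted p = 0.00445) and Eif4a2 (adjusted p = 3.6e-09) passed the exact binomial test as well, and Eif4a1 did not (adjusted p = 0.29). Of the 31 hosts tested, 8 passed at any fold, 3 higher and 5 lower in replicate 2, and 0 were called at the 2-fold limit. The difference between a snoRNA's ratio and its host's was not tested. Snora73b (-0.03, interval -0.16 to 0.09) and Snora73a (-0.01, interval -0.17 to 0.14) had intervals that hold 0.

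The median log2 ratio was 0.20 over the 36 tested members and 0.00047 over all genes tested. In this median and in the numbers of members that follow, the 8 Rnu3b rows are counted singly although they hold 2 sequences. Of the 46 members 28 had a positive and 18 a negative ratio, from -0.54 for the 216-base Rnu3b rows to 1.19 for Gm25117. Within 1.5-fold lay 37 of the 46, against 94.8% of all genes tested. The 46 include the 10 members with too few counts to test. The members' counts in sum had a log2 ratio of 0.23 (0.19 to 0.27), and 0.16 (0.11 to 0.22) without Scarna10, in counting intervals that leave out the spread between animals. The erythroid markers moved in the opposite direction between the same libraries, from -1.94 to -1.52, and their part in the members' ratios was not tested.

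**Figure D5:**
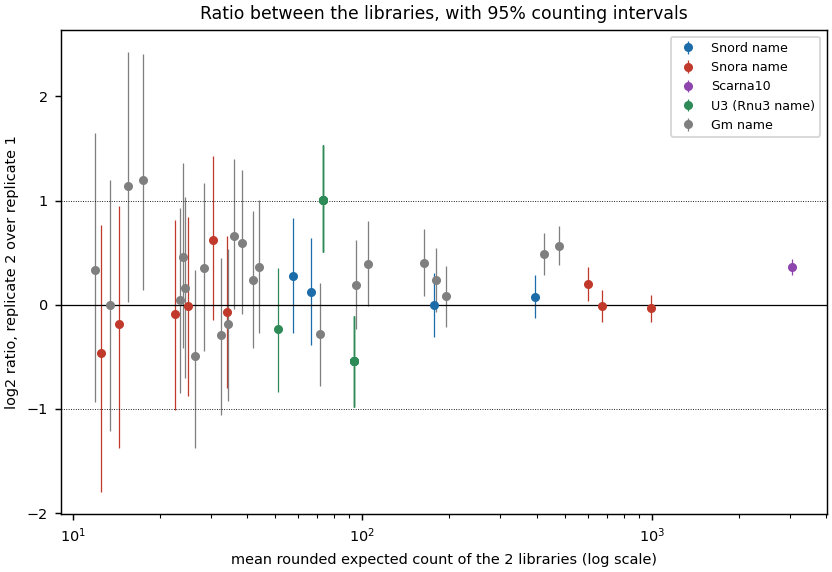
Log2 ratio of replicate 2 over replicate 1 for each member, with its exact 95% counting interval, against the mean count (log scale). Dotted lines mark 2-fold, and the green point at 1.01 stands for the 4 identical 215-base Rnu3b rows. The intervals leave out the uncertainty of dividing shared reads.

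The relatives of Gm22988 had ratios of the same sign as Gm22988 itself. Gm25291 had 29 and 43 counts, Gm24727 10 and 21 counts and Gm25117 11 and 24 counts. Gm24727 and Gm25117 had too few counts to be tested, and Gm25291 did not pass (adjusted p = 0.177 by the exact binomial test). In Gm25291 and Gm25117 all 45 windows were their own, and the posterior SDs of their counts were 0. Gm24727 shared 22 of 45 windows with the snoRNA row Gm23123. The Pabpc4 pair Gm25788 and Gm22154 gave 132 and 146 counts in sum, with a log2 ratio of 0.25 (-0.10 to 0.60).

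The genes of proteins that bind snoRNAs had moderate RNA levels, and the proteins themselves were not measured. All 4 genes of C/D box core proteins lay at 1 TPM or more in both libraries, from Nop56 (11.4 ± 2.6 TPM, SD, n = 2) to Snu13 (20.5 ± 0.9 TPM). So did the 4 genes of H/ACA box core proteins, from Gar1 (7.56 ± 0.17 TPM) to Nop10 (23.1 ± 1.1 TPM). All 20 genes of assembly and Cajal body factors did so too, with a median of 5.15 TPM, Nufip1 the lowest (1.17 ± 0.14 TPM) and the export receptor gene Xpo1 the highest (14.5 ± 1.7 TPM). The 13 genes of RNA polymerase I and pre-rRNA processing factors had a median of 14.3 TPM, from Polr1b (4.01 ± 0.56 TPM) to the nucleolar protein gene Npm1 (57.4 ± 2.1 TPM). Of the 41 genes in these lists 0 were called between the libraries and 6 passed the adjusted p of the exact binomial test at any fold, against 21.9% of all genes tested.

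Of 23 listed snoRNA host genes, non-coding except for the protein-coding Snrpn, 20 were matched by symbol and 15 reached 1 TPM in both libraries. The highest was Snrpn (39.6 ± 3.4 TPM, SD, n = 2), and the lowest was Snhg11, at 0.01 TPM in each library. Gas5, a non-coding host of many short C/D box snoRNAs, stood at 23.2 ± 1.8 TPM. Of the 16 tested, 0 were called and 2 passed the exact binomial test at any fold, Gas5 (adjusted p = 0.024) and Snrpn (adjusted p = 0.033), against 21.9% of all genes tested. In tissue, fewer cells of a type and less RNA per cell cannot be told apart.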

How the data were processed

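Total RNA of 2 hearts was analysed. Per the file headers and description files, the authors quantified both libraries against mm10 with annotation M21, with programs not given in the sources used here. One quantification holds deposited expected counts and TPM per gene, and a second holds deposited estimated counts and TPM per transcript, which were summed here per gene. The 97 spike-in rows and 26248 rows with a bare number for a name stayed out of library sizes. The members and lists were chosen with earlier results of these data known. Named were the 20 members highest in TPM, the 10 highest in counts, the extremes of each name group, called members, those nearest the minimum, members with historical names and those of hosts with several members. Expected counts were rounded and compared by exact binomial tests (SciPy 1.17.1) against TMM sizes of edgeR 4.0.16 in R 4.3.3, with DESeq2 1.42.0 size factors as an alternative. Log2 ratios had 0.5 added to each count. Alignments used Biopython (match 1, mismatch -1, gap opening -2, gap extension -0.5). Intervals are exact, at 95%. They cover counting error only, and leave out the spread between animals and the uncertainty of dividing shared reads. The reads carry no molecular identifiers. In a simulation of all 13745 tested genes with counting noise alone, every one of 50 genes set 3-fold apart was recovered, while 0 of 50 set 1.5-fold apart and 0 of 13545 left equal were called. The sets without calls lay under the 2-fold limit that a call requires, so their lack of calls says little about the test. The simulation held no spread between animals and no division of shared reads, so it gives no rate of false calls for these libraries. The reference is of C57BL/6J, so reads of the CAST allele carry mismatches whose effect was not measured. Symbols unmatched were Snhg4, Snhg7 and Snhg16. One member that the naming rule covers, and its host gene, are not reported here by name in the text.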

Additional observations from a re-analysis of the deposited data

How the results depend on the processing

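The number of detected snoRNA genes was 24 at a minimum of 50 and 0 in the second quantification, and stayed within 1.5-fold of 46 at a minimum of 5 (53) or 20 (40), with 1 library (49 and 50), or with the Rnu3b rows counted as 1 (39, an alternative chosen after seeing the data). The second quantification gave a share of counts of 9.1e-06%, a summed TPM of 1.53, a median TPM of 0, 0 members above their host and 0 called, and no C/D share or median ratio because the members there were at 0 or untested. At a minimum of 50 the summed TPM was 2951, the median TPM 49.9 and the C/D share 46.6%, and expected counts gave a C/D share of 37.0%. With 1 library left out, the median TPM was 27.8 to 31.0, both above the 25.9 of the mean over both, the summed TPM 3191 to 3671, the share of counts 0.0221 to 0.0246%, the C/D share 42.6 to 43.8% and the members above their host 19 to 20. The number called was 4 with spike-in counts, with no minimum and at 1.5-fold. It was 0 with total counts, with DESeq2 size factors, with 5 added and with the edgeR exact test, and 7 at any fold. The 4 called rows stood at 2.01-fold, close to the 2-fold limit, and the cause of each lost call was not tested. The median log2 ratio of members ran from 0.12 with total counts to 0.44 with spike-in counts, under which all genes had a median of 0.24. Expected counts in place of TPM put 5 members above their host, and 15 of the 44 members inside a gene overlapped an exon. No paired analysis was possible because there is a single group. With 2 libraries the spread between animals is poorly known, and 10 members had too few counts to test.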
